A study of Homo sapiens with 6 samples.

Results

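The 10 genes described here encode the cytokine LIF, receptor chains used by LIF and its relatives (LIFR, IL6ST and OSMR), the kinase JAK2, the transcription factor STAT3 and the feedback inhibitors SOCS2, SOCS3, SOCS4 and SOCS6. They were chosen by gene symbol out of 60604 genes in a table of read counts, and 10 of 10 were among the 15022 genes that passed the filter on low counts. RNA was sequenced from MIA PaCa-2, a long-established line from a human carcinoma of the pancreas, labelled WT. One group of 3 libraries came from cells given black phosphorus (BP), a layered form of the element, at 12.5 µg/ml. The other group of 3 libraries had the same dose of BP plus 10 mg/ml of Huaier, which is prepared from a fungus used in Chinese medicine. Both groups received BP, so the comparison concerns the addition of Huaier. How long the cells were treated is not stated in the labels.

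LIF belongs to the cytokine family that signals through gp130, the protein encoded by IL6ST. LIF binds LIFR, which then pairs with gp130, while oncostatin M signals through gp130 paired with OSMR or LIFR. Kinases of the JAK family, bound to the receptor tails, phosphorylate STAT3, which enters the nucleus and activates genes that include SOCS3. SOCS3 in turn binds gp130 and JAK and stops the signal. In pancreatic carcinoma LIF is known as a factor that acts on the carcinoma cells through STAT3.

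Total counts on genes lay between 15657593 and 17036565 per library, and 3 counts corresponded to 0.160 to 0.222 CPM, the read count relative to library size after TMM scaling. BP+Huaier 3 stood apart from its group. It lay at 11.5 on the first principal component, which held 72.4% of the variance, against 65.1 and 66.0 for BP+Huaier 1 and 2 and -50.5 to -43.4 for the BP libraries. The labels do not state whether each library is a culture of its own, so the p-values rest on library-to-library spread that may be only technical. KRT8, KRT18, KRT19 and VIM, markers of this carcinoma line, were present in every library, whereas the epithelial markers EPCAM, CDH1 and KRT7 had means of at most 0.182 CPM. PTPRC and CD3E of leukocytes and DCN and LUM of fibroblasts had 0 counts in 6 of 6 libraries, although CD14 (21.0 to 45.5 CPM) and CDH5 (11.7 to 21.1 CPM) were detected. The summed leukocyte markers were at 40.9 to 45.5 CPM with BP and 21.2 to 34.1 CPM with BP+Huaier, the fibroblast markers, nearly all COL1A2, at 502 to 558 and 386 to 488 CPM, and the endothelial markers at 17.6 to 21.1 and 11.9 to 14.7 CPM. In the fibroblast list COL1A1 rose, from 1.34 ± 0.101 to 5.92 ± 0.648 CPM (SD, n = 3; edgeR adjusted p = 8.9e-04), and COL1A2 and COL3A1 did not pass the test. The endothelial marker CDH5 fell, from 19.0 ± 1.92 to 12.7 ± 1.69 CPM (edgeR adjusted p = 0.0298). CD14 just missed the threshold (edgeR adjusted p = 0.0507), with lower values in each BP+Huaier library.

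With Huaier added, LIF rose 3.78-fold, whereas IL6ST fell 2.02-fold and OSMR fell 1.74-fold. STAT3 and the 4 SOCS genes did not pass the test, and neither did LIFR and JAK2, whose values were low in BP+Huaier 1 and 2 only. Of the 10 genes 1 was higher and 2 were lower by edgeR's quasi-likelihood test (Benjamini-Hochberg adjusted p under 0.05 over all genes tested), where 14.4% of all genes tested were higher, 15.0% lower and 29.3% either. The shares of 1 in 10 and 2 in 10 are near those backgrounds, so the number of calls is not a result about these genes. Without BP 2 or BP+Huaier 2 the number lower was 1, and without BP+Huaier 3 it was 5. The median log2 fold change of the 10 genes was -0.37, beside -0.02 for all genes tested. However, 5 of the 10 have transcripts under 40% G and C, and all tested genes of that kind had a median of -0.30. In RNA from bulk cultures, a change in the share of cells that express a gene and a change in RNA per cell cannot be told apart.

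**Figure D1:**
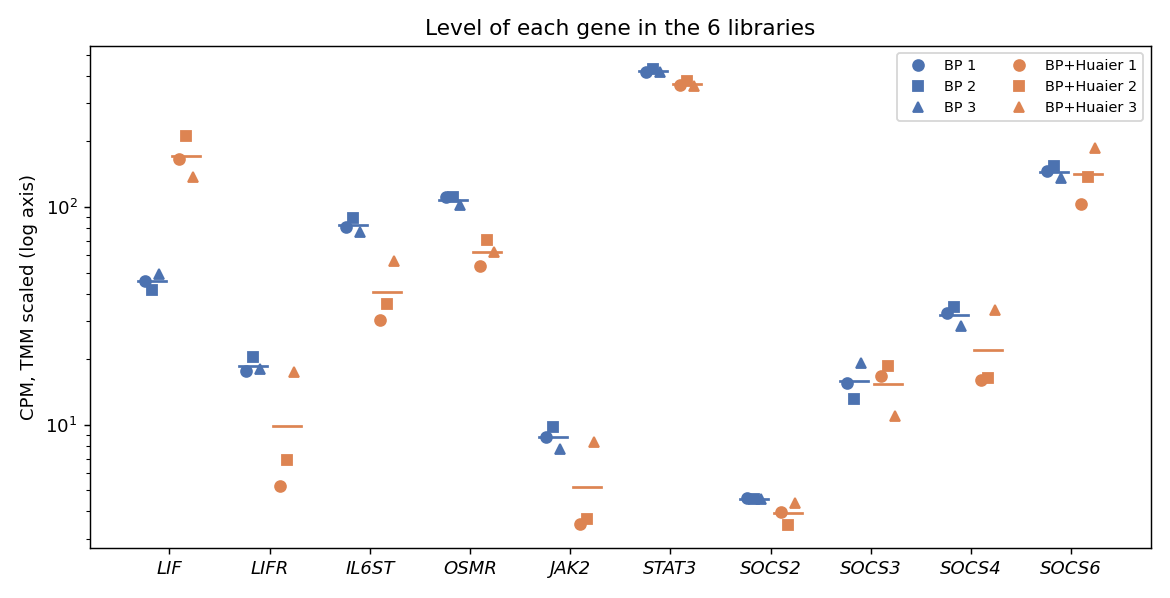
Level of the 10 genes in each library, as TMM-scaled CPM on a log axis, with the mean of each group as a bar. LIF lay above all BP values in each BP+Huaier library, while LIFR, JAK2 and SOCS4 in BP+Huaier 3 lay at about the BP level and away from BP+Huaier 1 and 2.

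LIF (ENSG00000128342.5, GRCh38 chromosome 22, 30240453 to 30246759, minus strand) was at 45.9, 41.5 and 49.1 CPM in the BP libraries and at 166, 212 and 138 CPM in the BP+Huaier libraries. The groups did not overlap, and the lowest BP+Huaier library was the third. The mean went from 45.5 ± 3.83 to 172 ± 37.2 CPM (SD, n = 3). The log2 fold change was 1.92 with an SE of 0.18 (edgeR adjusted p = 7.6e-04), higher than that of 99.3% of all genes tested. LIF was called under 18 of 18 alternative settings, with a log2 fold change between 1.64 and 2.07. Its exons overlap those of LIF-AS1 over 86 bases and of LIF-AS2 over 83 bases, both on the opposite strand, or 2.2% and 2.1% of the exon bases of LIF. LIF-AS1 was at 1.38 ± 0.227 and 1.73 ± 0.445 CPM (SD, n = 3; edgeR adjusted p = 0.453). LIF-AS2 rose, from 1.49 ± 0.591 to 4.94 ± 2.13 CPM (SD, n = 3; edgeR adjusted p = 0.0155), but held 303 counts in all libraries beside 10086 for LIF. No source used here gives whether the counting used strand.

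The 3 receptor genes lie on chromosome 5, LIFR and OSMR 237503 bases apart. Stretches upstream of their RefSeq starts (GRCh38.p14) are shown for IL6ST and OSMR, the 2 receptor genes that fell, and for the 2 of 3 LIFR windows that hold the letters of the STAT motif. Of the 10 genes, 8 had at least 1 promoter window in the RefSeq table, with 14 windows in all; LIF and SOCS2 were not among them. The motif TTCNNNGAA, searched on both strands from 250 bases before to 50 bases after each start, occurred in 2 windows, both of LIFR, and in 7.66% of all 35116 windows. The stretches shown run 5′ to 3′ on the strand of the gene, and capitals mark the motif.
IL6ST, chr5:55995124-55995213, minus strand, bases -250 to -161: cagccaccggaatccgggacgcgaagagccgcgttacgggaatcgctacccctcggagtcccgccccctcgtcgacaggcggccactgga
OSMR, chr5:38845762-38845851, plus strand, bases -250 to -161: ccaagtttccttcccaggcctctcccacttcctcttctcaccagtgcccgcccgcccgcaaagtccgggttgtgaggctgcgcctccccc
LIFR, first start, chr5:38595526-38595615, minus strand, bases -210 to -121: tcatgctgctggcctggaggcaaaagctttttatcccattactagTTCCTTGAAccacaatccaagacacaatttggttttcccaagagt
LIFR, second start, chr5:38557588-38557677, minus strand, bases -210 to -121: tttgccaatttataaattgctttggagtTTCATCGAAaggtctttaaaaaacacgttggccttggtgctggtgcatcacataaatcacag
The whole windows were 72.7% G and C for IL6ST and 67.7% for OSMR. The LIFR windows were at 47.3% and 42.3% for the first and second starts and at 81.7% for the other start, whose window holds no STAT letters and is not printed, so LIFR starts lie both under and over the other 2 genes in base composition. The AP-1 letters TGANTCA occurred in 1 of the 14 windows, that of OSMR, and in 7.71% of all windows, with no overlap with the STAT letters. The CRE letters TGACGTCA occurred in 0 of the 14 and in 1.85% of all windows. A match is a description of these letters only.

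IL6ST (ENSG00000134352.20, chromosome 5, 55935095 to 55995022, minus strand), the signalling chain shared by the family, was at 81.3, 89.3 and 76.8 CPM in the BP libraries and at 30.3, 35.7 and 56.7 CPM in the BP+Huaier libraries. Each BP+Huaier library lay under each BP library, and BP+Huaier 3 lay closest to them. The mean went from 82.5 ± 6.31 to 40.9 ± 13.9 CPM (SD, n = 3). The log2 fold change was -1.01 with an SE of 0.22 (edgeR adjusted p = 0.0116). Leaving out BP 2 or BP+Huaier 2 ended the call, with adjusted p-values of 0.0585 and 0.0617 in a range of 9.4e-07 to 0.0617 over 18 alternatives. With the trend of each library on GC content and transcript length taken out, the log2 fold change of IL6ST was -0.66 (edgeR adjusted p = 6.5e-04).

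OSMR (ENSG00000145623.13, chromosome 5, 38845858 to 38945596, plus strand), the chain that pairs with gp130 for oncostatin M, was at 111, 111 and 102 CPM with BP and at 53.7, 70.5 and 62.0 CPM with BP+Huaier. Here BP+Huaier 3 lay between the other libraries of its group, and the groups did not overlap. The mean went from 108 ± 5.03 to 62.1 ± 8.38 CPM (SD, n = 3). The log2 fold change was -0.80 with an SE of 0.14 (edgeR adjusted p = 0.0051). OSMR was called lower under 18 of 18 alternatives, with a log2 fold change between -1.06 and -0.67. OSMR shares 229 exon bases, or 3.2% of its own, with RICTOR on the opposite strand, which was at 16.5, 18.9 and 42.9 CPM in the BP+Huaier libraries and at 33.1 to 37.6 CPM in the BP libraries.

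LIFR (ENSG00000113594.10, chromosome 5, 38474668 to 38608354, minus strand), the chain that binds LIF itself, was at 17.6, 20.4 and 18.1 CPM with BP and at 5.24, 6.87 and 17.4 CPM with BP+Huaier. BP+Huaier 1 and 2 were far under the BP libraries, while BP+Huaier 3 was just under the lowest of them. LIFR did not pass the test, with means of 18.7 ± 1.49 and 9.84 ± 6.60 CPM (SD, n = 3) and a log2 ratio of -0.91 with an SE of 0.38 (edgeR adjusted p = 0.0981; 95% interval -1.77 to -0.05 for LIFR alone). Without BP+Huaier 3 it was called, at -1.62 on the log2 scale (edgeR adjusted p = 2.7e-06), and it was called under 6 of 18 alternatives in all, among them a separate spread for each group (limma-voom adjusted p = 0.0157). LIFR-AS1, which shares 629 exon bases with LIFR on the opposite strand, was at 0.798 to 0.945 CPM with BP and at 0.115 to 0.222 CPM with BP+Huaier, where 3 counts correspond to 0.173 to 0.222 CPM.

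JAK2 (ENSG00000096968.14, chromosome 9, 4984390 to 5129948), a kinase that binds gp130 and other cytokine receptors, was at 8.79, 9.79 and 7.74 CPM with BP and at 3.49, 3.69 and 8.36 CPM with BP+Huaier. The groups overlapped through BP+Huaier 3 alone. JAK2 missed the threshold (log2 fold change -0.74 ± 0.32 SE; edgeR adjusted p = 0.111), but without BP+Huaier 3 its log2 fold change was -1.28 (edgeR adjusted p = 7.6e-05). JAK2 was also called with no filter on low counts (edgeR adjusted p = 0.020).

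STAT3 (ENSG00000168610.16, chromosome 17, 42313324 to 42388540), the transcription factor at the end of the pathway, was at 415, 431 and 419 CPM with BP and at 364, 378 and 359 CPM with BP+Huaier. The groups did not overlap, yet the difference was small and missed the threshold (log2 fold change -0.20 ± 0.13 SE; edgeR adjusted p = 0.243; 95% interval -0.48 to 0.08). STAT3 was the most evenly expressed of the 10 genes within BP+Huaier, with a mean of 367 ± 9.87 CPM (SD, n = 3) beside 422 ± 8.30 CPM with BP. Scaling by library size alone, under which the median over all genes tested went from -0.02 to -0.28 on the log2 scale, gave STAT3 a difference of -0.47 on that scale (edgeR adjusted p = 0.0169).

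SOCS3 (ENSG00000184557.4, chromosome 17, 78356778 to 78360077), the inhibitor that STAT3 induces and that binds gp130, was at 15.5, 13.2 and 19.2 CPM with BP and at 16.8, 18.6 and 11.0 CPM with BP+Huaier. The groups overlapped, with the highest value in BP 3 and the lowest in BP+Huaier 3. The log2 fold change was -0.05 ± 0.23 (SE; edgeR adjusted p = 0.888), and its 95% interval ran from -0.56 to 0.47, which leaves out a rise as large as that of LIF. SOCS3 was called under 0 of 18 alternatives, and its log2 fold change was 0.16 without BP+Huaier 3 and 0.13 without BP 3.

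SOCS2 (ENSG00000120833.14, chromosome 12, 93569814 to 93583487), best known as an inhibitor of growth hormone signalling, was at 4.61, 4.58 and 4.55 CPM with BP and at 3.98, 3.47 and 4.38 CPM with BP+Huaier. These values were slightly lower with Huaier but missed the threshold (log2 fold change -0.21 ± 0.20 SE; edgeR adjusted p = 0.434), at 47 to 86 counts per library. SOCS4 (ENSG00000180008.9, chromosome 14, 55027230 to 55049489), which has been linked to the EGF receptor, was at 32.5, 34.7 and 28.3 CPM with BP and at 16.0, 16.4 and 33.5 CPM with BP+Huaier. SOCS4 overlapped between the groups through BP+Huaier 3 alone, and missed the threshold (edgeR adjusted p = 0.172) unless that library was left out (log2 fold change -0.96; edgeR adjusted p = 3.4e-05). SOCS6 (ENSG00000170677.6, chromosome 18, 70289045 to 70330199), a regulator of receptor tyrosine kinases, was at 146, 154 and 135 CPM with BP and at 103, 137 and 186 CPM with BP+Huaier. The 3 BP+Huaier libraries of SOCS6 spread from under to over the BP range, and the log2 fold change was -0.03 ± 0.20 (SE; edgeR adjusted p = 0.913).

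**Figure D2:**
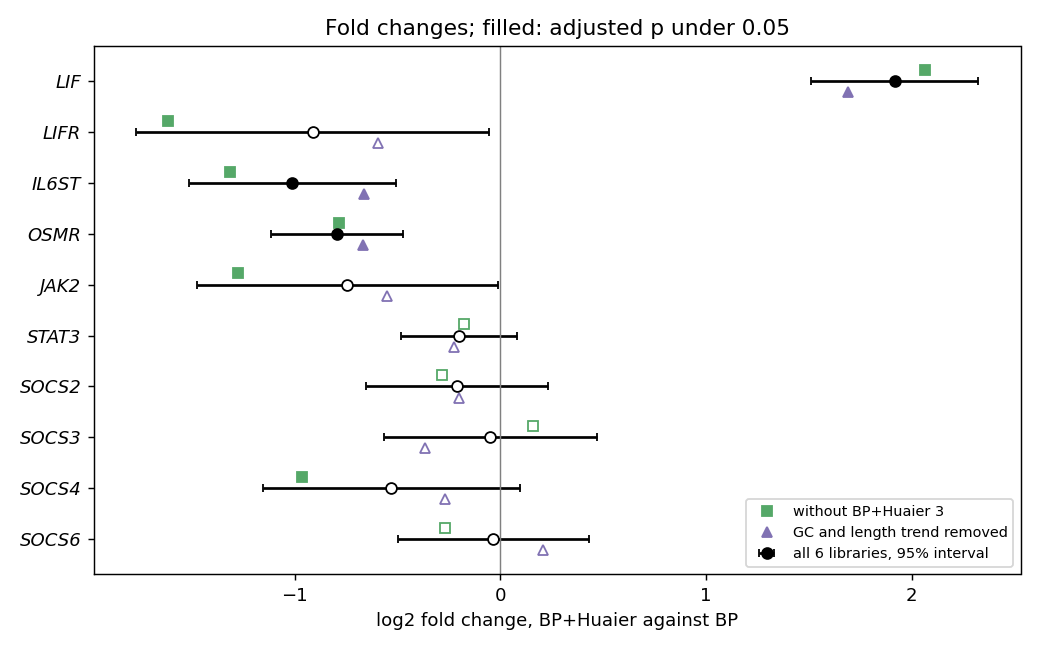
Log2 fold change of each gene (BP+Huaier against BP) with all 6 libraries and its 95% interval, without BP+Huaier 3, and after removal of the GC and length trend; filled symbols passed an adjusted p under 0.05. LIF, IL6ST and OSMR are filled in all 3 settings, and LIFR, JAK2 and SOCS4 only without BP+Huaier 3.

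Divided by the length of the gene model, levels can be compared only roughly between genes, as a gene model can be longer than its transcripts. The genes also differ in GC content, described below. With BP the order from the highest was STAT3, SOCS6, OSMR, LIF, IL6ST, SOCS3, SOCS4, LIFR, JAK2 and SOCS2, from 37.6 ± 0.741 CPM per kb for STAT3 to 0.707 ± 0.00511 CPM per kb for SOCS2 (SD, n = 3). Among neighbours in that order, the libraries of SOCS3 (5.84 ± 1.11 CPM per kb) and SOCS4 (4.52 ± 0.465 CPM per kb) overlapped, and the other pairs did not. With BP+Huaier LIF came first by this length at 44.4 ± 9.60 CPM per kb, over STAT3 at 32.7 ± 0.880 CPM per kb. The libraries of these 2 genes did not overlap. The gene model of STAT3 has 11208 bases and its longest transcript 5047, while those of LIF have 3871 and 3969. Divided by the longest transcript instead, STAT3 would stay above LIF in both groups. The first place of LIF thus depends on the length used. Per kb of gene model LIF was below OSMR with BP, at 11.8 ± 0.989 against 15.0 ± 0.701 CPM per kb. With BP+Huaier LIF was above OSMR, which was at 8.65 ± 1.17 CPM per kb. IL6ST went from 8.15 ± 0.624 to 4.04 ± 1.38 CPM per kb and overlapped SOCS3 and SOCS4 with BP+Huaier. LIFR, JAK2 and SOCS2 were the lowest in both groups, and their BP+Huaier libraries overlapped.

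**Figure D3:**
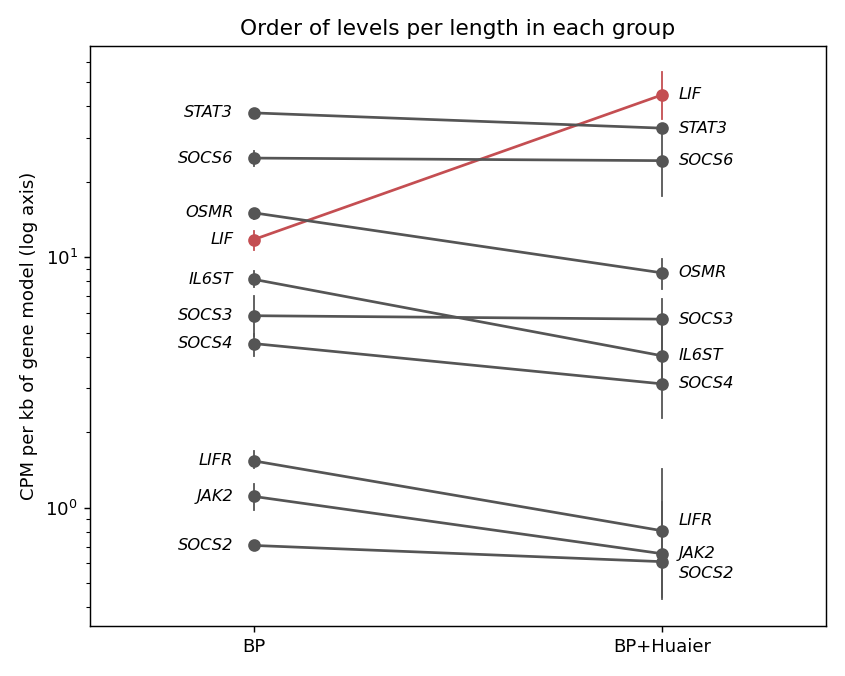
Mean level per kb of gene model in each group on a log axis, with lines from the lowest to the highest library. LIF (red) went from 11.8 to 44.4 CPM per kb and, by this length, from the fourth place to the first. Divided by the longest transcript instead, STAT3 would stay above LIF.

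The genes differ in base composition, and so did BP+Huaier 1 and 2 from the BP libraries in how genes of low and high GC content were represented. LIFR, IL6ST, JAK2, SOCS4 and SOCS6 have 35.3% to 39.2% GC in their longest GENCODE transcript, beside a median of 49.4% for all genes tested, and LIF and SOCS3 have 56.9% and 59.99%. Over all 2167 tested genes under 40% GC, the median log2 ratio to the BP mean was -0.59, -0.42 and -0.02 in BP+Huaier 1, 2 and 3. The log2 ratio of LIFR was -1.84, -1.44 and -0.10 in these libraries, and that of JAK2 was -1.33, -1.25 and -0.07. SOCS4 had log2 ratios of -0.99, -0.96 and 0.08. These 3 genes thus lay under the median of low-GC genes in BP+Huaier 1 and 2 and near it in BP+Huaier 3. IL6ST, at -1.45, -1.21 and -0.54, and OSMR (45.2% GC), at -1.0, -0.61 and -0.80, were low in BP+Huaier 3 as well. LIF was at 1.87, 2.22 and 1.6, whereas tested genes of 50% to 60% GC had medians of 0.23, 0.16 and -0.02. After removal of the GC and length trend, LIF (log2 fold change 1.69), IL6ST (-0.66) and OSMR (-0.67) were called, and LIFR was at -0.60 (edgeR adjusted p = 0.0566). The part of base composition in these results was otherwise not tested.

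**Figure D4:**
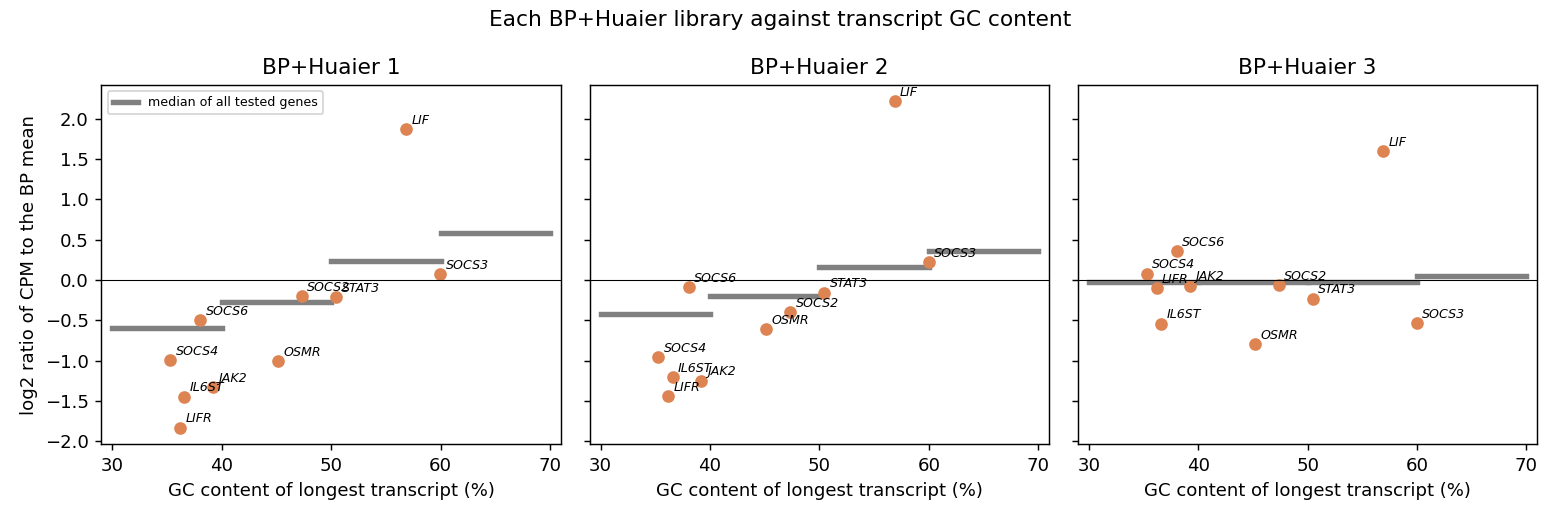
Log2 ratio of each gene to its BP mean in each BP+Huaier library, against the GC content of the longest transcript; grey bars are medians of all tested genes under 40%, from 40% to 50%, from 50% to 60% and at 60% or more. The grey bars climb from -0.59 to 0.59 in BP+Huaier 1 and from -0.42 to 0.36 in BP+Huaier 2 and stay within 0.05 of 0 in BP+Huaier 3, where IL6ST and OSMR remain low and LIF high.

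In gene structure LIF and SOCS3 are the compact members, spanning 6.31 and 3.30 kb, beside a median of 27.0 kb for all genes tested, whereas LIFR and JAK2 span 134 and 146 kb. SOCS genes have few exons, with 2 in the longest transcript of each of the 4, whereas the receptor genes have 17 to 20. The pentamer ATTTA, a letter pattern of AU-rich elements in short-lived transcripts, occurred 2.18 times per kb of the 3′ UTR in LIF and 2.44 times in SOCS3. It occurred 3.64 to 4.37 times per kb in the 3 receptor genes, and the median of tested protein-coding genes was 1.56.

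By distance between centred log2 CPM profiles over the 6 libraries, the genes most like LIF among 10118 protein-coding genes of at least 5 CPM were PDGFB, a growth factor (Pearson r = 0.995), RAB3A, a GTPase of vesicle release (r = 0.994), and GEM, a GTPase (r = 0.993). PDGFB went from 11.3 to 46.1 CPM on average. Those most like IL6ST were ICE2, SCRN3 and NPIPB5, with r = 0.999, 0.998 and 0.997, and ICE2 went from 31.8 to 16.5 CPM on average. The values are descriptions over 6 libraries that share a group difference. NPIPB5 belongs to a family of near-identical copies, so its counts are uncertain.

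Of 60 other genes of the pathway, in 6 lists, 20 were higher and 4 lower, 32 did not pass the test and 4 did not pass the filter on low counts, with a median log2 fold change of 0.27 over the 56 tested. That is 35.7% higher and 7.1% lower of those tested, beside 14.4% and 15.0% of all genes tested, and the lists were chosen with earlier results of these data known. The number lower was 0 without BP 1, BP 3 or BP+Huaier 2, 1 without BP 2 and 8 without BP+Huaier 3. Among the other gp130 cytokines 1 of 6 tested rose, CLCF1, from 5.66 ± 0.565 to 15.8 ± 1.12 CPM (SD, n = 3; edgeR adjusted p = 0.00112). CLCF1 acts through the CNTF receptor together with LIFR and gp130. IL6 and IL27 had 0 counts in 6 of 6 libraries, and OSM was at 0.370 ± 0.0499 and 0.426 ± 0.182 CPM.

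Of the 4 co-receptors that give gp130 its ligands, 2 rose, beside 14.4% of all genes tested. With so few genes this count is not a result about the list. IL6R was at 4.28, 3.73 and 3.78 CPM with BP and at 10.6, 13.7 and 10.4 CPM with BP+Huaier (log2 fold change 1.56 ± 0.19 SE; edgeR adjusted p = 0.00147). CNTFR went from 7.37 ± 0.468 to 13.0 ± 1.19 CPM (SD, n = 3; edgeR adjusted p = 0.00775), a call lost without BP 1 (0.0548). Both rose while IL6ST, the chain they share, fell, and IL6R was called under each of 18 alternatives.

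Among JAK kinases and other STATs 1 of 8 tested rose and 2 fell, beside 14.4% and 15.0% of all genes tested, and with so few genes these counts are not a result about the list. TYK2, a JAK kinase, went from 127 ± 10.7 to 177 ± 20.2 CPM (SD, n = 3; edgeR adjusted p = 0.0337). STAT2, which relays interferon, went from 46.7 ± 1.05 to 34.7 ± 1.91 CPM (edgeR adjusted p = 0.0338), and STAT6, which relays IL4, from 61.6 ± 3.89 to 41.2 ± 7.24 CPM (edgeR adjusted p = 0.0254). The TYK2 and STAT2 calls were lost without any 1 library other than BP+Huaier 3 (edgeR adjusted p from 0.0719 to 0.156), that of STAT6 without BP 1, 2 or 3 or BP+Huaier 2 (0.0750 to 0.118), and that of TYK2 also after removal of the GC and length trend (0.151). JAK1, the main kinase of gp130, had means of 84.8 ± 4.69 and 92.7 ± 10.8 CPM (edgeR adjusted p = 0.502).

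Of 12 other feedback inhibitors 4 rose and 0 fell by edgeR, beside 14.4% higher and 15.0% lower of all genes tested. With so few genes these counts are not a result about the list. CISH, the founding member of the SOCS family and a target of STAT5, was at 0.769, 0.905 and 0.827 CPM with BP and at 5.45, 6.43 and 4.03 CPM with BP+Huaier, with a log2 ratio of 2.65 and an SE of 0.28 (edgeR adjusted p = 8.9e-04). SOCS1, which inhibits JAK kinases, was at 1.15, 0.958 and 1.24 CPM and at 3.28, 4.65 and 1.61 CPM (edgeR adjusted p = 0.0234). SOCS7 went from 57.6 ± 0.640 to 90.3 ± 7.67 CPM (SD, n = 3; edgeR adjusted p = 0.00728), and PIAS4, a SUMO ligase, from 53.5 ± 4.02 to 94.0 ± 24.1 CPM (edgeR adjusted p = 0.0151). So of the 8 SOCS family genes, CISH, SOCS1 and SOCS7 rose, and SOCS2, SOCS3, SOCS4, SOCS5 and SOCS6 did not pass the test. The SOCS1 and PIAS4 calls were lost without BP 1, 2 or 3 or BP+Huaier 2 (edgeR adjusted p from 0.0516 to 0.0990), and that of SOCS7 with scaling by library size alone (0.0948). In the SOCS box ubiquitin ligase, the complex through which SOCS proteins mark their targets, the scaffold CUL5 fell from 36.7 ± 1.17 to 21.9 ± 5.06 CPM (SD, n = 3; edgeR adjusted p = 0.0156), a call lost without the same 4 libraries (0.0585 to 0.0742). The other 5 subunits and partners did not pass.

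Of 20 known target genes of STAT3, 12 (60%) rose 1.63-fold to 10.8-fold and 1 fell. Of all genes tested 14.4% were higher, and of those with at least 60% GC 29.8%. This list was chosen with earlier results of these data known, so these shares are not a result about the list. The risen genes include the kinases PIM1, from 37.9 ± 1.20 to 275 ± 108 CPM (SD, n = 3), and PIM3, from 132 ± 4.27 to 624 ± 249.7 CPM. JUNB, an AP-1 subunit, went from 73.1 ± 9.99 to 303 ± 129.5 CPM, CEBPB from 63.8 ± 3.56 to 241 ± 107 CPM, BCL3, a partner of NF-kB, from 58.4 ± 2.13 to 153 ± 45.5 CPM, and MYC from 196 ± 1.64 to 491 ± 125 CPM. The others were MCL1, VEGFA, IER3, ZFP36, SBNO2 and BIRC5, and the edgeR adjusted p of the 12 lay between 7.6e-04 and 0.0323. Many of these genes also answer to other pathways. In 11 of the 12, MCL1 being the exception, the lowest BP+Huaier value was in BP+Huaier 3, and their transcripts have 45.1% to 67.4% GC. With the GC and length trend removed, the 12 stayed called. The log2 fold change of SBNO2 then went from 0.79 to 0.37 and that of BCL3 from 1.39 to 0.93. It was smaller for the others too, except MCL1 and VEGFA. The part of base composition was otherwise not tested. ICAM1, an adhesion molecule, fell (edgeR adjusted p = 0.0146): it was at 0.585 to 1.24 CPM with BP and at 0.148 to 0.279 CPM with BP+Huaier, near the 0.173 to 0.222 CPM of 3 counts. The SBNO2 call was lost without BP 1, 2 or 3 or BP+Huaier 2 (edgeR adjusted p from 0.0532 to 0.0752), that of BIRC5 without any 1 library other than BP+Huaier 3 (0.0745 to 0.134), and that of ICAM1 without BP 1, BP 3 or BP+Huaier 2 (0.0636 to 0.0707). Of the keratin markers, KRT18 rose from 450 ± 14.1 to 771 ± 251 CPM (SD, n = 3; edgeR adjusted p = 0.0368). KRT19 rose from 221 ± 11.5 to 454 ± 170.0 CPM (edgeR adjusted p = 0.0173). KRT8, the most abundant keratin here, was not called, with an edgeR adjusted p of 0.18. It was at 1666, 1551 and 769 CPM with BP+Huaier and at 882 to 1020 CPM with BP. Each of these keratins was lowest within BP+Huaier in BP+Huaier 3. There KRT18 was at 483 CPM, beside 436 to 464 CPM with BP. The part of the keratins in these results was not tested.

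**Figure D5:**
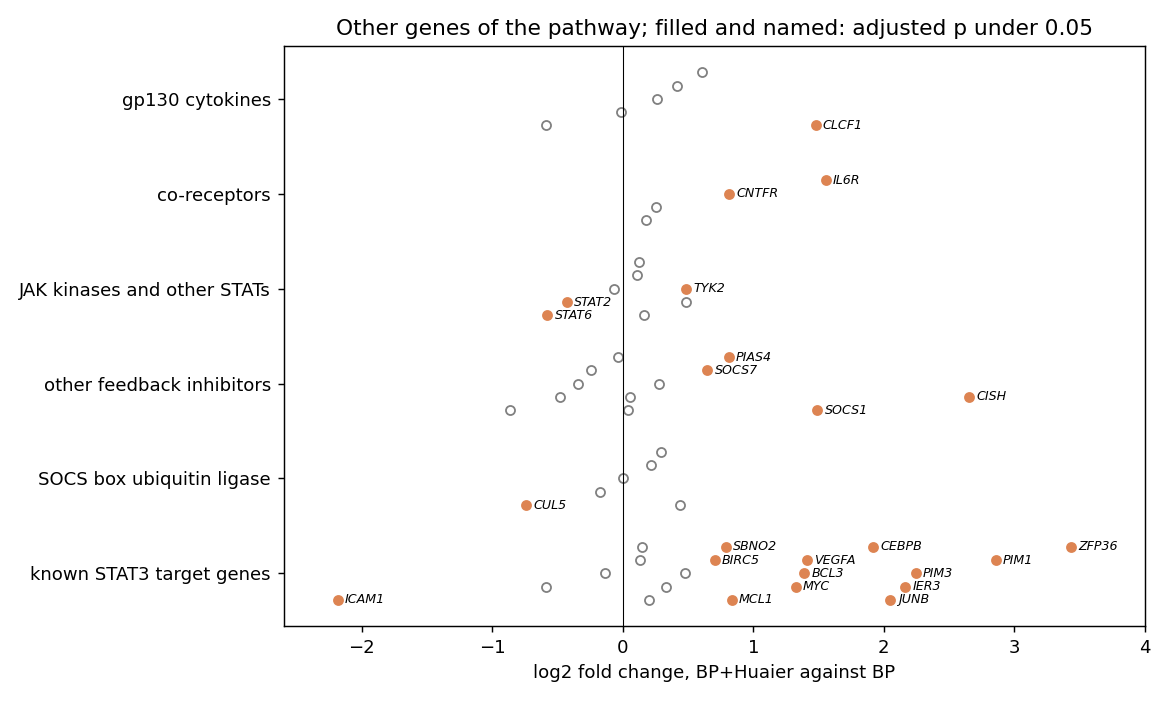
Log2 fold change (BP+Huaier against BP) of the 56 tested genes in the 6 lists, 1 point per gene, spread vertically for legibility; filled, named points passed an adjusted p under 0.05. Filled points lie mainly among the known STAT3 targets, with 12 higher and 1 lower. The lists were chosen with earlier results of these data known, so this is not a result about that list.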

How the data were processed

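RNA from 6 libraries was sequenced, 3 with BP and 3 with BP+Huaier. The submitters' processing notes name GRCh38, featureCounts 1.6.1, HISAT2 2.1.0 and fastp 0.20.0. The annotation release and the strand setting of the counting are not stated there. Per the file headers, the authors deposited raw counts for each gene, and the values are whole numbers. The 3 broken lines of 1 gene and 44 pseudoautosomal copies with 0 counts were left out. Symbols came from a table of gene names that matched 99.77% of IDs, and GC content, exons and 3′ UTRs from GENCODE 29. Gene coordinates and lengths are those of the deposited table.

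The comparison was fitted with edgeR 4.0.16 (R 4.3.3; filterByExpr by group, TMM, robust quasi-likelihood test, no covariate). A gene was called where the Benjamini-Hochberg adjusted p over all genes tested was under 0.05. Standard errors and 95% intervals, the latter not adjusted for the number of genes, follow from that test. Alternatives were DESeq2 size factors, library size alone, DESeq2 1.42.0, limma-voom (limma 3.58.1) with a common or separate spread, other filters, the replicate number as a block, removal from each library of its spline trend on GC and transcript length, each library left out, and an adjusted p under 0.01. Steps were tested on simulated counts. The 95% intervals include the spread between libraries, whereas floors of 3 counts cover counting error only. The genes and lists were chosen with earlier results of these data known. Named genes are the 10 members, the called genes of each list and up to 4 per list by mean CPM, genes that overlap a member's exons, and for LIF and IL6ST the 3 genes with the smallest distance of log2 CPM profiles (prior count 2). OSM, IL6, IL27, SOCS5 and the marker genes fall outside that rule and were chosen after their values were seen. Some genes that the rule takes in are not reported here. Figures were drawn with matplotlib 3.10.9.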

Additional observations from a re-analysis of the deposited data

How the results depend on the processing

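LIF was higher and OSMR lower, past the threshold, under 18 of 18 alternatives, and IL6ST was lower under 15 of 18. Of the 10 genes 1 was higher under each alternative. The number of the 10 that were lower, 2 with all libraries, was 4 with no filter on low counts, 1 at an adjusted p under 0.01, and 1 to 5 with single libraries left out (1 without BP 2 or BP+Huaier 2, and 5 without BP+Huaier 3). The number of other pathway genes that were lower, 4 with all libraries, was 0 at an adjusted p under 0.01 and 0 to 8 with single libraries left out (0 without BP 1, BP 3 or BP+Huaier 2, 1 without BP 2 and 8 without BP+Huaier 3). The number that were higher ran from 14 to 29 with single libraries left out, beside 20. Of genes that were not called, several changed sign, each without passing the threshold. SOCS6 had log2 fold changes of 0.21 after removal of the GC and length trend, 0.20 with the block as well, and from -0.27 to 0.16 with single libraries left out (above 0 without BP 2, BP+Huaier 1 or BP+Huaier 2). SOCS3 ran from -0.19 to 0.16 with single libraries left out (above 0 without BP 3 or BP+Huaier 3). With library size alone, CTF1 was at -0.025, IL27RA at -0.10, JAK1 at -0.13, STAT5B at -0.17, ELOC at -0.26 and ARIH2 at -0.045. After the trend was removed, CTF1 was at -0.094, IL27RA at -0.10 and ELOC at -0.042, and with the block as well CTF1 was at -0.090, IL27RA at -0.10 and ELOC at -0.043. ELOC was at -0.090 with genes of at least 5 CPM, -0.051 with protein-coding genes only and -0.020 to 0.045 with single libraries left out. The cause was not tested. Over all genes, 26.2% of calls were higher with library size alone, beside 49.0%, and 4452 genes were higher and 4793 lower without BP+Huaier 3, against 810 and 909 without BP 1, 834 and 938 without BP 2, 1021 and 1056 without BP 3, 1775 and 1845 without BP+Huaier 1, and 952 and 1015 without BP+Huaier 2.

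The replicate numbers of the 2 groups showed no pairing of the libraries. Deviations of same-numbered libraries from their group means correlated at r = 0.01, -0.06 and -0.28 across genes, and no library correlated best with its own number. As BP+Huaier 3 stood apart from its group, a smaller effect shared by same-numbered libraries could not be seen in this way. With the replicate number as a block, 1357 genes were higher and 1742 lower, beside 2160 and 2246, and of the 10 genes 1 was higher and 3 were lower, LIFR being the added one (log2 -1.10, edgeR adjusted p = 0.0454). The block also ended the calls of TYK2, STAT2 and BIRC5 (edgeR adjusted p = 0.101, 0.108 and 0.055). Together with removal of the trend, it ended those of CNTFR (0.0509), TYK2 (0.247) and SOCS1 (0.0618). Low counts limit SOCS2 (47 to 86 per library), SOCS1 (18 to 63), CISH (14 to 87), OSM (4 to 11) and ICAM1 (2 to 21).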
